A study of Mus musculus with 4 samples.

Results

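The genes described here are steroid, retinoid, alcohol and aldehyde dehydrogenases and the related reductases of mouse liver. They were taken as every probe set of the value table whose single gene symbol begins with Hsd3b, Hsd11b, Hsd17b, Rdh, Adh and a digit, Aldh, Akr, Cbr or Srd5a, with Hsd3b7 left out. This gave 58 probe sets of 44 genes, among 12422 probe sets that are not array controls and 8251 genes that a probe set names alone, and no probe set began with Srd5a. Total liver RNA of male B6SJL hybrid mice, aged 50 to 66 days, had been hybridised to Affymetrix MG_U74Av2 arrays, 1 array per sample. From weaning on, all mice had eaten for 4 weeks a diet with 65% protein and 10% carbohydrate. The wild-type group carried no transgene, and the PEPCK-TAg group carried a transgene for the SV40 large T and small t oncoproteins, named for the PEPCK promoter of a liver and kidney enzyme of glucose synthesis. Each group had 2 arrays, called duplicate measurements by the series, and nothing in the sources used here says that they came from separate animals, so a p-value measures only the spread between these arrays, which may be technical.

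These enzymes move hydrogen between a nicotinamide cofactor and an alcohol, aldehyde or ketone group, and the liver is one of the tissues richest in them. The Hsd families interconvert active and inactive steroid hormones and also take part in fatty acid and cholesterol metabolism. The Adh and Rdh enzymes oxidise alcohols, retinol among them, to aldehydes, and the Aldh enzymes oxidise aldehydes to acids, as in the clearance of ethanol and the making of retinoic acid. The Akr and Cbr enzymes reduce carbonyl groups of steroids, sugars and foreign compounds.

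Most of the enzymes measured read lower in PEPCK-TAg liver, and the falls that passed the test were spread over the Hsd3b, Hsd11b, Hsd17b, Rdh, Aldh and Akr families. Of the 42 members bright enough to be tested, 9 fell and 1 rose at a Benjamini-Hochberg adjusted p of 0.05 in limma's moderated test, where 3.4% of all 7877 probe sets tested fell and 9.1% rose. The 9 falls, 21.4% of the members tested, came from 8 genes: Hsd3b5, Rdh16, Aldh7a1 with 2 probe sets, Akr7a5, Hsd11b1, Hsd17b2, Akr1c6 and Hsd17b4. Cbr1, a carbonyl reductase of the cytosol, was the rise. The Adh family, which holds the main ethanol-oxidising enzymes, had no call among 6 probe sets tested. The median log2 difference, PEPCK-TAg minus wild-type, was -0.55 over the members tested and 0.051 over all probe sets tested, and 36 of the 42 members lay below 0 against 46.9% of all.

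**Figure D1:**
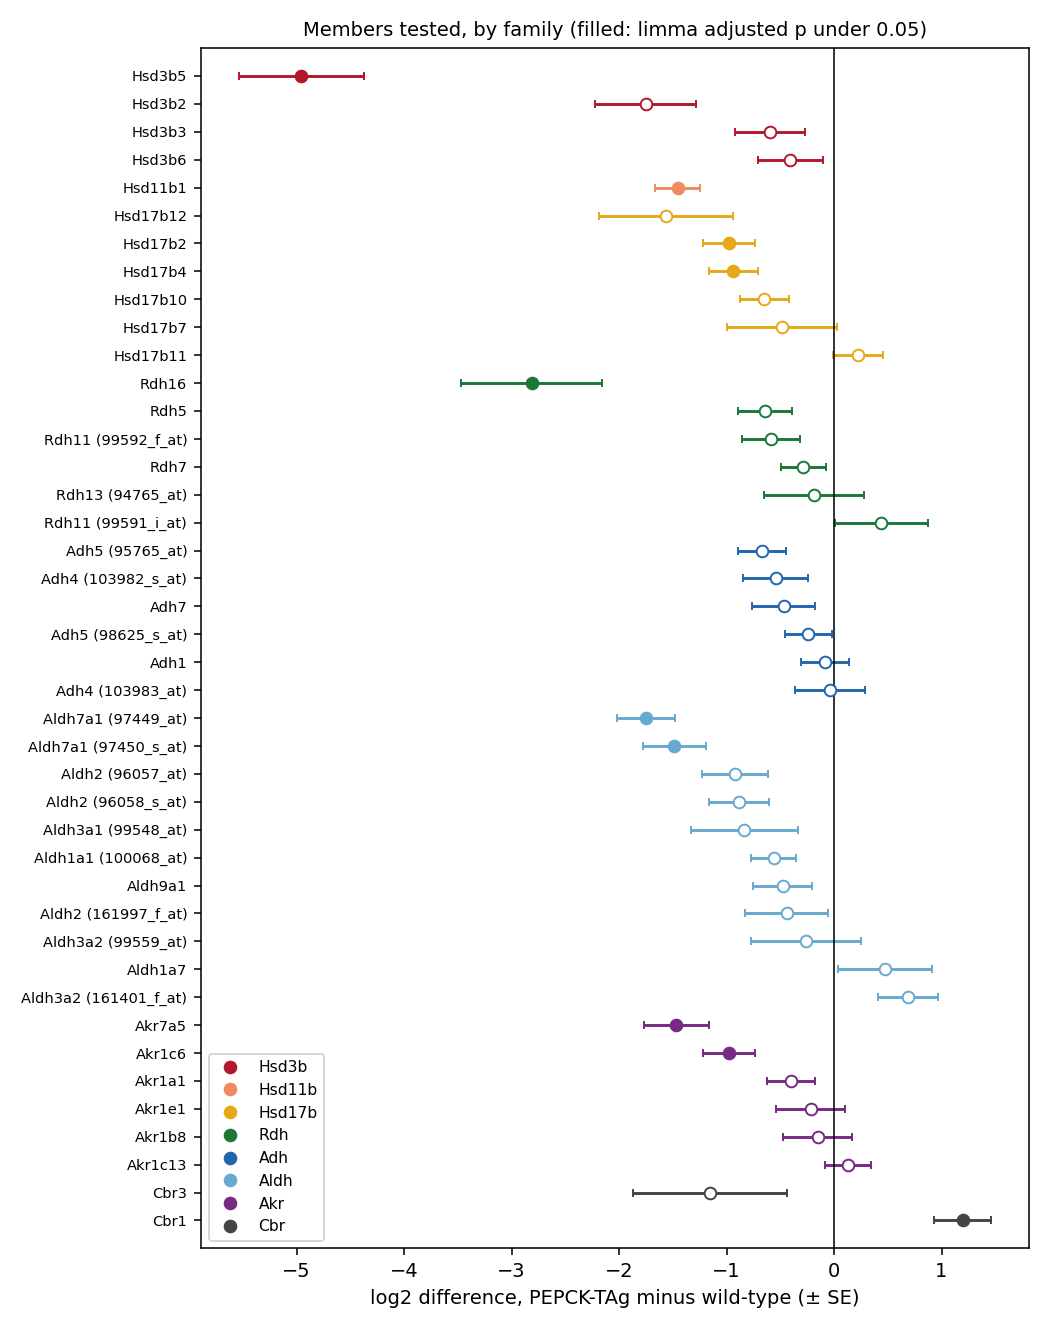
Log2 difference (PEPCK-TAg minus wild-type, with its standard error) of each of the 42 probe sets tested, 1 row each, coloured by family; filled points passed an adjusted p of 0.05. Hsd3b5 at -4.96 and Rdh16 at -2.81 stand farthest to the left, and Cbr1 at 1.20 is the filled point on the right.

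Level and cell makeup moved with this comparison. The members were bright, with a median signal of 1135 against 204 over all probe sets tested, and bright probe sets as a class read lower on the PEPCK-TAg arrays. Over the 989 probe sets with a mean signal of 1000 or more, the median log2 difference was -0.29 and 11.8% fell, whereas the 22 members of that range had a median of -0.63 and 31.8% fell. Between 250 and 1000 the 12 members had a median of -0.44 and all 2471 probe sets one of 0.059, and below 250 the 8 members had -0.57 against 0.13. Quantile normalization, which gives the arrays 1 distribution, moved the median of all probe sets from 0.051 to -0.088 and that of the members to -0.50.

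The liver label was borne out by hepatocyte markers, of which apolipoprotein A-I (Apoa1) read 14846 and 14459 on the arrays of wild-type liver. Of 7 hepatocyte markers tested, tyrosine aminotransferase (Tat) passed the test as a fall and none passed as a rise. Their median log2 difference was -0.56, close to that of the enzymes, but the markers did not all move the same way. Fgb read 3939.5 and 3146.6 in wild-type liver against 4807.3 and 5284.4 in PEPCK-TAg liver (log2 difference 0.52), and Fga gave 0.27. The rest had negative differences. The summed signal of all 7 markers was 65791 and 68275 in wild-type liver against 39845 and 52195 in PEPCK-TAg liver. Of 7 granulocyte markers 6 rose, with a summed signal of 275 and 291 against 5743 and 9949, of 6 erythroid markers 5 rose (2908 and 3005 against 7160 and 10959), and of 6 macrophage markers 2 rose (1520 and 1504 against 3336 and 3441). The risen markers Ngp, S100a8, S100a9, Mpo, Hemgn and Epb42 lay below the filter level of 41.3 on both wild-type arrays, and Ltf on wild-type 2. These were tested only because they were high in PEPCK-TAg liver. The 3 biliary markers with a probe set, Krt19, Krt7 and Epcam, lay below that level on all arrays. No lymphocyte, stellate or endothelial marker passed the test, but only 2 lymphocyte, 2 stellate and 4 endothelial markers were tested. In bulk RNA, fewer hepatocytes and less of an enzyme's RNA per hepatocyte cannot be told apart. The part of cell makeup in the differences was not tested.

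Hsd3b5 makes the liver form of 3-beta-hydroxysteroid dehydrogenase that is typical of adult male mice and works there as a ketosteroid reductase. Its signal was 3419 and 902.6 in wild-type liver against 52.0 and 61.6 in PEPCK-TAg liver. Both PEPCK-TAg arrays lay far below the lower wild-type array, and the wild-type arrays themselves were 3.79-fold apart. The log2 difference was -4.96 ± 0.58 SE, a 31.1-fold fall (limma adjusted p = 0.00392; each group in all comparisons had n = 2 arrays). It was -6.04 between wild-type 1 and PEPCK-TAg 1, which share a scan day, and -4.00 without wild-type 1. In RefSeq these Hsd3b genes lie on chromosome 3 in the order Hsd3b5, Hsd3b2, Hsd3b3, Hsd3b6 and Hsd3b1. The differences of the first 4 became smaller along that order.

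Hsd3b2, whose enzyme is a dehydrogenase and isomerase, read 2424 and 1156 in wild-type liver against 716.6 and 344.6 in PEPCK-TAg liver. The groups did not overlap, with a log2 difference of -1.75 ± 0.47 SE, but the adjusted p of 0.0570 missed the threshold. Over the alternatives that p ran from 0.000262 without wild-type 2 to 0.369 with the fluidics station as a block. It was 0.0464 with a pseudocount in place of the floor, 0.0475 with a filter at the 60th percentile, 0.0727 under quantile normalization and 0.0805 with a floor at the 40th. Hsd3b3 read 738.8 and 421.9 against 394.2 and 347.0, a log2 difference of -0.60 ± 0.32 SE (adjusted p = 0.266). Hsd3b6 gave -0.41 ± 0.30 SE (adjusted p = 0.404), with 768.1 and 469.2 against 448.0 and 459.1, from a probe set that Affymetrix marks as shared by a gene family. For both of these the wild-type arrays differed by more than the groups did. In all 4 genes wild-type 1 was the higher wild-type array. The median of the 4 probe sets tested was -1.18, and ran from -1.65 without wild-type 2 to -0.71 without wild-type 1. Hsd3b1, the form of adrenal gland and gonads, had a probe set at 4.4 and 5.2 in wild-type liver against 34.5 and 44.1 in PEPCK-TAg liver, too dim to be tested, and a second one at 9.0 or less on every array. A probe set that lists Hsd3b4 with 2 other symbols was not used.

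The 250 bases before the annotated start of the gene that fell most, of its nearest relative in the cluster by promoter letters, and of the gene with the second largest fall are shown to place the differences beside the sequences. They are RefSeq windows of GRCm38.p6, 5′ to 3′ on the gene's strand: Hsd3b5 at chr3:98645535-98645784 (minus strand), Hsd3b3 at chr3:98763129-98763378 (minus strand) and Rdh16 at chr10:127800903-127801152 (plus strand). In the first pair capitals mark the 1 run of 12 or more identical bases that both windows hold, and in Rdh16 they mark matches of the motifs searched.
Hsd3b5: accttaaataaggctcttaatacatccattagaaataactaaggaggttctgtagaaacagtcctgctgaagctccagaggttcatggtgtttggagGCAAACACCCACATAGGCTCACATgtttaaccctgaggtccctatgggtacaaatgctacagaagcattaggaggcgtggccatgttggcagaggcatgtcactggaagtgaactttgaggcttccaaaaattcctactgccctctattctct
Hsd3b3: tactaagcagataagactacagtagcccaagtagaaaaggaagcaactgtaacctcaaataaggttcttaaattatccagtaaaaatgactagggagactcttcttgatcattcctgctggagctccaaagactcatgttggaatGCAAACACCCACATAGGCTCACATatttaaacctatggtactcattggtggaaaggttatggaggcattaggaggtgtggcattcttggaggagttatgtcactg
Rdh16: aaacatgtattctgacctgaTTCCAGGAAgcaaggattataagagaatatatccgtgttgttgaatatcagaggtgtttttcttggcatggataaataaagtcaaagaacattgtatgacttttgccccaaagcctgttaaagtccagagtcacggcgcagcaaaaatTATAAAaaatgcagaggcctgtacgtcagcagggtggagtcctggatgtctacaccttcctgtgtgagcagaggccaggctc
The shared run is 24 bases long and begins 153 bases before the start of Hsd3b5 and 105 bases before that of Hsd3b3. The upstream windows of Hsd3b1, Hsd3b2 and Hsd3b6 held no run of 12 bases in common with that of Hsd3b5. Identity was counted over all columns of an alignment, gaps included, and its level for unrelated sequences was not tested. Window ends without a counterpart count as columns too. The shared run lies at unlike distances from the starts of Hsd3b5 and Hsd3b3. Their identity over whole windows may thus understate how alike the matching stretches are. Over whole windows of 300 bases, with 50 bases past the start, Hsd3b5 and Hsd3b3 were 55.5% identical and Hsd3b5 and Hsd3b2 55.2%. These values were at the top of the 71 pairs within families, which ran from 42.4% with a median of 49.4%. The log2 differences of this most similar pair of windows were -4.96 for Hsd3b5 and -0.60 for Hsd3b3.

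The 3 motifs given next were searched on both strands in the 300-base windows, which RefSeq's table held for 35 of the 44 genes. The STAT motif TTCNNNGAA was found in 4 of the 35 genes and in 8.3% of all 32851 windows. The core of the antioxidant response element, TGACNNNGC, was in 5 of 35 and 12.4% of all, and TATAAA was in 6 of 35 and 13.6%. The STAT letters were in the windows of Rdh16, Hsd3b1, Aldh18a1 and Aldh9a1. Among the genes that fell, Hsd11b1 held the antioxidant core, and Akr1c6 and Rdh16 held TATAAA. The fallen genes Hsd17b2, Hsd17b4 and Aldh7a1 had no window and were not searched. The windows of Hsd3b5, Hsd3b3, Akr7a5 and Cbr1 held no match of any of the 3. A match is a run of letters and not a measured binding site.

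Hsd11b1, which regenerates active corticosterone inside hepatocytes, fell with the least spread of the larger changes. It read 5381 and 5660 in wild-type liver against 2123 and 1910 in PEPCK-TAg liver, a log2 difference of -1.46 ± 0.21 SE or a 2.74-fold fall (adjusted p = 0.00831). The wild-type arrays were 1.05-fold apart and the PEPCK-TAg arrays 1.11-fold. Hsd11b2, the kidney enzyme that inactivates corticosterone, lay between 3.0 and 17.8 over its 2 probe sets and was not tested.

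The Hsd17b family covers enzymes of hormone, fatty acid and cholesterol metabolism, and 2 of its 6 probe sets tested fell. Hsd17b2, which oxidises estradiol and testosterone, read 1180 and 1077 against 652.2 and 503.1 (log2 difference -0.98 ± 0.24 SE, adjusted p = 0.0472). Hsd17b4, the multifunctional enzyme of peroxisomal beta-oxidation, read 3405 and 3352 against 1973 and 1580 (-0.94 ± 0.23 SE, adjusted p = 0.0434). For both, the groups lay apart and the arrays of a group differed by less than the groups did. Both calls lie close to the threshold and were lost under quantile normalization (adjusted p = 0.0525 and 0.0802). The higher floor, at the 40th percentile, also ended them (0.0537 and 0.0509).

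Hsd17b12, the reductase of very long fatty acid elongation, had the largest difference of its family and no call. Its signal was 440.1 and 1882 in wild-type liver against 339.1 and 279.7 in PEPCK-TAg liver, and the wild-type arrays, 4.27-fold apart, differed by more than the groups (log2 difference -1.56 ± 0.62 SE, adjusted p = 0.151). In the pair scanned on 1 day the difference was -0.38, and without wild-type 1 it was -2.61. Hsd17b10, a mitochondrial enzyme of isoleucine breakdown, gave -0.65 ± 0.23 SE (adjusted p = 0.114), Hsd17b7 of cholesterol synthesis -0.49 ± 0.51 SE, and Hsd17b11 of lipid droplets 0.22 ± 0.24 SE. The sex hormone enzymes Hsd17b1 and Hsd17b3 read 34.4 or less on all 4 arrays and were not tested. The family median was -0.79.

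**Figure D2:**
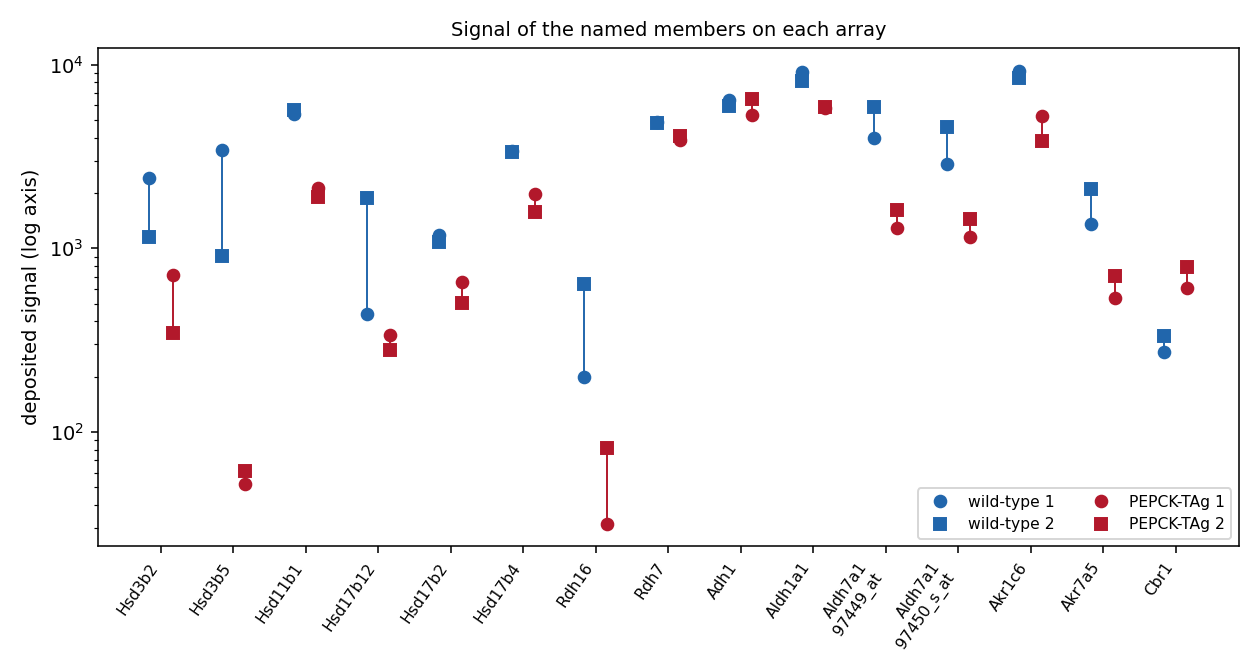
Deposited signal on each of the 4 arrays (log axis) for the 15 probe sets named by rule; circles are arrays numbered 1, squares arrays numbered 2, and lines join the arrays of a group. Hsd3b5, Hsd17b12 and Rdh16 have widely separated wild-type arrays, whereas those of Hsd11b1, Hsd17b4 and Rdh7 nearly coincide.

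Rdh16 oxidises retinol and androgens, and was the 1 member of the Rdh family that fell. It read 198.4 and 640.0 in wild-type liver against 31.6 and 81.5 in PEPCK-TAg liver, with no overlap. The log2 difference was -2.81 ± 0.66 SE, or 7.03-fold (adjusted p = 0.0389). The wild-type arrays were 3.22-fold apart and the PEPCK-TAg arrays 2.58-fold, and the call was lost with a floor at the 40th percentile (adjusted p = 0.0592). Rdh7, a close relative that is its neighbour among these genes on chromosome 10, was the brightest of the family and moved little. It read 4879 and 4840 against 3885 and 4090 (-0.29 ± 0.21 SE, adjusted p = 0.398), and its sign turned to 0.16 under quantile normalization. Rdh5 gave -0.64 ± 0.26 SE (adjusted p = 0.150), and the microsomal retinal reductase Rdh11 had 1 probe set at -0.58 ± 0.27 SE and another at 0.44 ± 0.43 SE. The difference between Rdh16 and Rdh7 was not tested.

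The alcohol dehydrogenases showed the smallest spread of differences. Adh1, the main ethanol and retinol dehydrogenase of liver, read 6420 and 5993 in wild-type liver against 5316 and 6463 in PEPCK-TAg liver. These ranges overlap, and the log2 difference was -0.083 ± 0.22 SE (adjusted p = 0.834), with 0.41 under quantile normalization and 0.058 without PEPCK-TAg 1. Adh5, which oxidises the glutathione adduct of formaldehyde, gave -0.67 ± 0.22 SE and -0.24 ± 0.22 SE in its 2 probe sets. Adh4 gave -0.54 ± 0.30 SE and -0.037 ± 0.33 SE, and Adh7, the stomach form, -0.47 ± 0.30 SE. The family median was -0.36, and no probe set of it was over 1.59-fold lower. The 4 Adh genes also lie on chromosome 3, in the order Adh7, Adh1, Adh4 and Adh5.

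In the Aldh family the falls were those of Aldh7a1, the mitochondrial and cytosolic enzyme of lysine breakdown. Its probe sets read 4009 and 5849 against 1285 and 1612, and 2876 and 4567 against 1152 and 1451. In both, the highest PEPCK-TAg array lay below the lowest wild-type array, with log2 differences of -1.75 ± 0.27 SE (3.37-fold, adjusted p = 0.0102) and -1.49 ± 0.29 SE (2.81-fold, adjusted p = 0.0230). These probe sets share a target and are not separate findings, and the other one was at 10.2 or less on all arrays. Aldh1a1, which makes retinoic acid from retinal, read 9111 and 8127 against 5773 and 5889 (-0.56 ± 0.21 SE, adjusted p = 0.134), the brightest of the family, and gave -0.021 under quantile normalization.

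Aldh2, the mitochondrial enzyme that clears acetaldehyde, had 3 probe sets at -0.92 ± 0.31 SE, -0.88 ± 0.28 SE and -0.44 ± 0.39 SE, with adjusted p of 0.103, 0.0921 and 0.485. Aldh9a1 of carnitine synthesis gave -0.48 ± 0.28 SE. Members above 0 were Aldh1a7, a close relative of Aldh1a1, at 0.47 ± 0.44 SE, and 1 of 2 probe sets of the fatty aldehyde enzyme Aldh3a2 at 0.69 ± 0.28 SE (adjusted p = 0.158). The other Aldh3a2 probe set gave -0.26 ± 0.51 SE, with wild-type arrays 3.10-fold apart. The retinal dehydrogenases Aldh1a2 and Aldh1a3 and both probe sets of Aldh18a1, an enzyme of proline synthesis, read 27.9 or less on every array. Aldh3a1, an enzyme of the cornea, gave -0.83 ± 0.50 SE (adjusted p = 0.308). The family median over 11 probe sets tested was -0.56, and -0.33 under quantile normalization.

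Of 6 aldo-keto reductases tested, 2 fell. Akr7a5, which reduces aflatoxin aldehyde and succinic semialdehyde, read 1360 and 2107 against 533.2 and 705.1 (-1.47 ± 0.30 SE, 2.76-fold, adjusted p = 0.0253). Akr1c6, a 17-beta-hydroxysteroid dehydrogenase of liver and the brightest probe set of the family, read 9269 and 8420 against 5243 and 3864 (-0.97 ± 0.24 SE, 1.97-fold, adjusted p = 0.0472). Under quantile normalization Akr1c6 gave -0.45 with an adjusted p of 0.278. Akr1c13, next to Akr1c6 among these genes on chromosome 13, read 2374 and 2326 against 2694 and 2451 (0.13 ± 0.21 SE, adjusted p = 0.720). The aldehyde reductase Akr1a1 gave -0.40 ± 0.23 SE, Akr1e1 -0.22 ± 0.32 SE and Akr1b8 -0.15 ± 0.32 SE, and Akr1c21 was not tested.

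Cbr1 reduces quinones, prostaglandins and other carbonyl compounds, and was the 1 member that rose. It read 271.8 and 333.7 in wild-type liver against 604.8 and 791.9 in PEPCK-TAg liver, with no overlap. The log2 difference was 1.20 ± 0.26 SE, or 2.30-fold (adjusted p = 0.0329), and 1.15 in the pair scanned on 1 day. The adjusted p was 0.0627 under quantile normalization and 0.0551 without an intensity trend. Cbr3, next to it among these genes on chromosome 16, gave -1.16 ± 0.72 SE (adjusted p = 0.323) with PEPCK-TAg arrays at 7.2 and 43.4. The 7.2 was raised to the floor of 10.6, which sets part of that difference. Cbr2 read 38.5 or less on all arrays.

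The spread between the wild-type arrays was large for several of these genes. The wild-type arrays were 2-fold or more apart in 9 of the 42 members (21.4%) and in 10.6% of all probe sets tested. The median absolute log2 difference between them was 0.94 in the Hsd3b family and 0.67 in the Aldh family, but 0.067 in the Rdh family and 0.12 in the Akr family, against 0.35 over all probe sets tested. The group difference was larger than both within-group differences in 21 of the 42 members (50.0%), where 48% of all probe sets tested met this. Without a test, 8 members were 2-fold or more lower with no overlap (5.87% of all) and 1 was higher (14.7% of all). The groups did not overlap with PEPCK-TAg lower in 25 members, against 26.5% of all, and higher in 3, against 33.3%. With 2 arrays in each group, the smallest two-sided p that exact permutation of the arrays allows is 0.33.

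**Figure D3:**
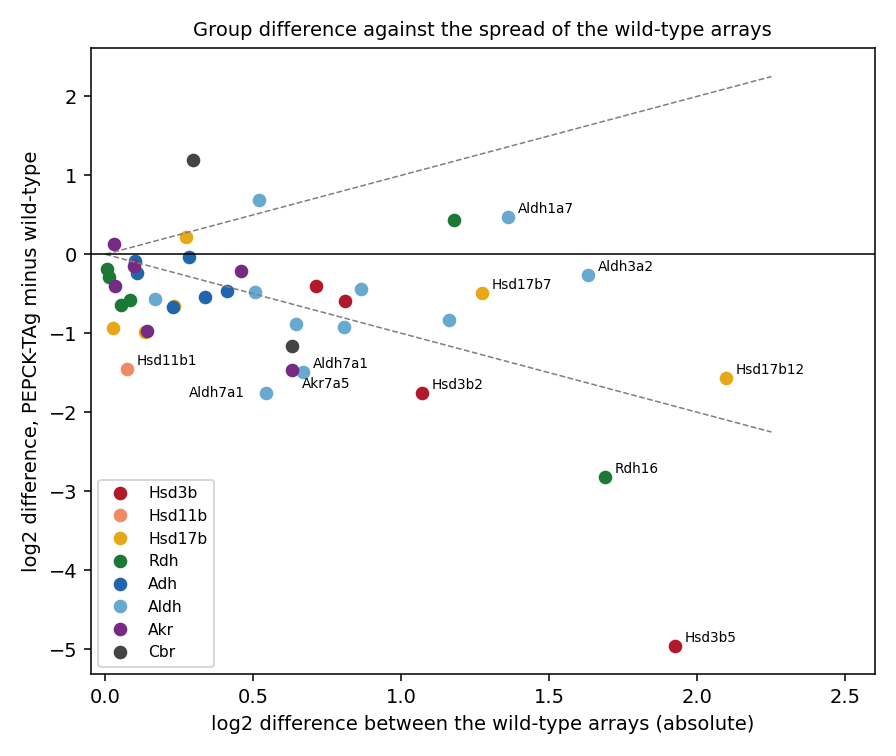
Log2 difference between the groups (vertical) against the absolute log2 difference between the 2 wild-type arrays (horizontal) for the 42 probe sets tested, coloured by family; on the dashed lines both are equal. Hsd3b5 and Rdh16 lie outside the lines in spite of a wild-type difference of 1.92 and 1.69, and Hsd17b12, at 2.10, lies inside them.

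The number of calls depended on the arrays used, for the members as for the whole array. Without PEPCK-TAg 1 the test called 2 of the members lower, Hsd3b5 and Hsd11b1, and without PEPCK-TAg 2 it called 1, Hsd3b5; neither setting called Cbr1. Over all probe sets tested the lower calls went from 3.4% to 0.81% and 0.588% in these settings. In these settings every called member kept the sign of its difference, but the size moved to unlike degrees. Akr7a5 gave -1.26 and -1.67, and Cbr1 gave 1.39 and 1.004. Rdh16 gave -2.13 and -3.50, and Hsd3b2, which had no call with all arrays, gave -2.28 and -1.23. The median log2 difference of the members tested was -0.433 without wild-type 1 and -0.625 without wild-type 2. Over all probe sets tested the medians were 0.067 and 0.053. These fits leave 1 wild-type array, so their calls are not compared. The chip lot differed between the groups and between the wild-type arrays, so lot and group cannot be told apart. PEPCK-TAg 2 was the only array of its fluidics station and wild-type 2 of its scanner type. Used as a block, either setting leaves that lone array no weight, so the fit rests on 1 array of its group. With the station as a block limma called no probe set in either direction. The median log2 difference of the members was -0.573 in that fit and -0.636 with scanner type as a block. Over all probe sets tested these medians were 0.042 and 0.044.

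Genes of the same pathways that are no members were followed in 4 lists, with the brightest probe set of each gene. Of 9 genes of retinoid handling tested, 2 fell and none rose, with a median log2 difference of -0.37. They were the aldehyde oxidase Aox1 (864.3 and 740.9 against 229.7 and 195.5, log2 difference -1.92 ± 0.25 SE, adjusted p = 0.00529) and transthyretin (Ttr), the carrier of retinol-binding protein (-1.76 ± 0.28 SE). The retinol carrier Rbp4 gave -0.37 ± 0.24 SE (adjusted p = 0.340). Neither call was kept without PEPCK-TAg 2.

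Of 17 genes of steroid and bile acid metabolism tested, 3 fell and 1 rose, with a median of -0.52. The falls were Cyp7b1, the oxysterol hydroxylase of male liver (3632 and 1770 against 196.0 and 142.2, -3.93 ± 0.38 SE), Cyp8b1 of cholic acid synthesis (1929 and 1384 against 360.9 and 464.9, 3.99-fold, adjusted p = 0.00675) and the bile acid ligase Slc27a5 (-1.23 ± 0.22 SE, adjusted p = 0.0170). Sult2a2, which sulfates bile acids and steroids, was at least 124-fold higher over the floor of 10.6, since a wild-type array lay below it; it too was tested only through the PEPCK-TAg arrays. Without either PEPCK-TAg array 1 gene of this list was called.

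Of 12 genes of ethanol, sugar and aldehyde metabolism tested, 5 fell and 1 rose, with a median of -0.76. Ethanol-oxidising Cyp2e1 fell (13847 and 14615 against 6058 and 7793, -1.05 ± 0.23 SE, adjusted p = 0.0326). Also lower were Agxt of glyoxylate metabolism (-1.95 ± 0.25 SE), the epoxide hydrolases Ephx2 (-1.16 ± 0.22 SE) and Ephx1 (-0.95 ± 0.22 SE), and the glycerol phosphate dehydrogenase Gpd1 (-1.22 ± 0.27 SE). Monoamine oxidase A (Maoa) rose (60.2 and 111.0 against 258.5 and 359.1, 1.90 ± 0.38 SE, adjusted p = 0.0241). Catalase (Cat), which also oxidises ethanol, gave -0.017 ± 0.24 SE. Under quantile normalization 2 genes of this list were called.

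Of 23 genes of the oxidative stress response tested, the quinone reductase Nqo1 rose (18.4 and 20 against 61.1 and 120.7, 2.16 ± 0.47 SE, adjusted p = 0.0308) and none fell, with a median of -0.15. Both wild-type signals lie under the filter level, so Nqo1 was tested only because it was high in PEPCK-TAg liver. The call was lost with a floor at the 40th percentile and without either PEPCK-TAg array. The glutathione synthesis enzymes Gclc and Gclm gave -1.25 ± 0.35 SE and 0.51 ± 0.38 SE, neither past the threshold.

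**Figure D4:**
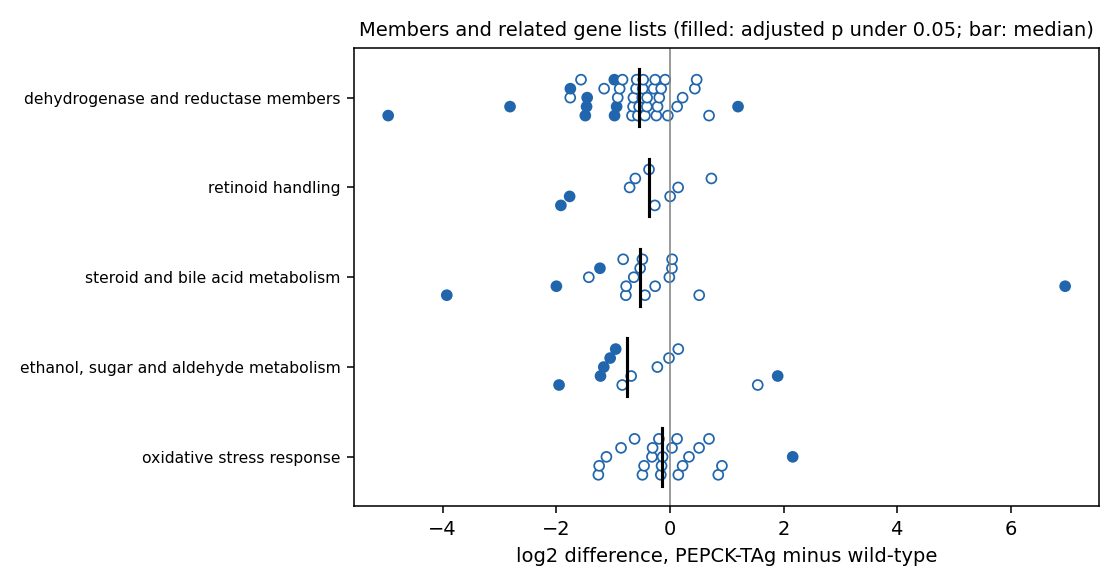
Log2 difference of each probe set tested for the 42 members (top row) and of the brightest probe set of each gene in the 4 related lists; filled points passed an adjusted p of 0.05 and bars are medians. The bars lie at -0.55, -0.37, -0.52, -0.76 and -0.15 from top to bottom, and the point at 6.96 is Sult2a2.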

How the data were processed

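Each deposited intensity is a MAS5 signal, per the submitters' processing notes (version not stated there), with a 2% trimmed mean of 250.2 on every array. Array run files gave other settings (station, scanner, lot, scan day), per the file headers. Arrays were rescaled to 1 trimmed mean without the 66 controls (a change of at most 0.1%), values under the 20th percentile (10.6) were set to it, and log2 was taken. Probe sets above the 40th percentile (41.3) on at least 2 of 4 arrays were tested, 7877 in all. Group differences and p-values came from limma 3.58.1 (R 4.3.3; intensity trend, no block, two-sided, 6.6 degrees of freedom, Benjamini-Hochberg over all tested). Standard errors are moderated, and signals printed are as deposited. The number of arrays limits the precision.

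Symbols came from the platform's annotation table, and all 58 matched RefSeq (GRCm38.p6). The members, lists and alternatives were chosen with earlier results of these data known. Named by rule were called members, members 2-fold apart with no overlap and the brightest of each family, and up to 3 called genes with the smallest p in each related list; others were named after their values were seen. The sequence rule also asked for Cbr1 and its nearest relative; Rdh16 was shown in their place, chosen after its values were seen. Promoter identity came from a global alignment (Biopython 1.88), since no protein sequences were used here. The alternatives were other scalings, floors and filters, a pseudocount, each array left out, replicate, station or scanner blocks, other variance settings and other thresholds.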

Additional observations from a re-analysis of the deposited data

How the results depend on the processing

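The median log2 difference of the members tested stayed between -0.40 and -0.64 under every alternative run. With all 4 arrays, 8 or 9 members were 2-fold lower without overlap. With fewer arrays no overlap is easier to meet, and 1 array per group always meets it, so those counts are not compared. The matching counts over all probe sets are not given for the alternatives. The number called was less stable: 9 fell and 1 rose, and without 1 array in turn the falls ranged from 1 to 12 and the rises from 0 to 3. In those fits the filter was taken over the 3 remaining arrays, and a lone array was assumed to vary like the other group. With no filter, 58 members and 12422 probe sets were tested. Limma then called 0 members lower and 0 higher (11 and 3 at an unadjusted p under 0.05). Of all probe sets it called 36 lower and 129 higher. In that setting 4 members were 2-fold higher without overlap, and the medians of Hsd3b, Hsd17b and Aldh were -0.50, -0.60 and -0.28. The fluidics station as a block, which leaves PEPCK-TAg 2 no weight, gave 0 and 0 calls and an Akr median of -0.51. A floor at the 40th percentile gave 5 falls, while the lower calls over all probe sets tested were 2.67%, against 3.4% in the main fit. Fitting eBayes without a trend gave 5 falls and 0 rises, with 2.34% of all lower and 669 of 7877 higher. Quantile normalization gave 0 rises (2 at an unadjusted p under 0.05), with 567 of all 7850 probe sets tested higher, against 717 of 7877 in the main fit. The cause was not tested.

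The replicate number as a block gave 14 falls, while the lower calls over all probe sets tested went from 3.4% to 8.04%. The labels do not say that the number pairs the arrays, and the same-numbered arrays' deviations correlated at 0.253 across probe sets. Other family medians that moved beyond the spread of the arrays were Adh at -0.23 with scanner type as a block and Akr at -0.55 in the pair of 1 scan day. With an array left out, Hsd3b ranged from -1.65 to -0.71, Hsd17b from -1.02 to -0.69, Adh from -0.33 to -0.23 and Akr from -0.51 to -0.25. Members 2-fold higher without overlap are not compared there, since no overlap is easier to meet with fewer arrays. Signs turned for Rdh7 (0.16) and Adh1 (0.41) under quantile normalization and for Adh1 without PEPCK-TAg 1 (0.058), none of them called.

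Calls in the related lists, against 2 for retinoid handling, 4 for steroids and bile acids, 6 for ethanol and aldehydes and 1 for oxidative stress, ranged from 0 to 3, 1 to 8, 0 to 5 and 0 to 5 with an array left out. In that order they were 0, 1, 0 and 0 with no filter and 0, 0, 0 and 0 with the station as a block. With the replicate block steroids and bile acids had 7 and oxidative stress 8, and at an adjusted p of 0.1 both had 7. Ethanol and aldehydes had 2 under quantile normalization and 3 without a trend. Oxidative stress had 2 under quantile normalization, 3 with scanner type as a block, and 0 with a floor at the 40th or a filter at the 60th percentile. The 16 members not tested exceeded the filter level on at most 1 array, and their signals are too close to the background for a test.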
